A study of Mus musculus with 24 samples.

Results

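The dermal adipocyte genes Adipoq, Lep, Retn, Cfd, Plin1, Plin4, Cidec, Cidea, Fabp4 and Pparg were followed in mouse skin, 10 genes of the 39017 gene IDs counted. They were chosen by name, as genes of fat cells, with earlier results of these data known, and found by their GENCODE symbols. All 10 passed the filter on low counts, as did 16248 gene IDs in all. RNA of dorsal skin from female C3H/HeJ mice, a strain that develops alopecia areata (AA), was sequenced in 24 libraries, 6 from each of 4 groups. Healthy mice and AA mice were untreated and sampled at week 12, although the AA sample names contain the letters Vec12w and a vehicle may have been given. AA was induced by skin grafting from affected mice. Systemic JAK1i mice were AA mice whose food carried Cmpd A, a small molecule selective for JAK1, at about 100 mg/kg daily for 4 weeks, and from which a biopsy was taken while they lived. The 8w off Tx libraries are terminal samples taken 8 weeks after treatment stopped, at week 12, and by the methods of the study they come from the same 6 mice as the systemic JAK1i biopsies. Nothing in the sources used here ties the library letters to mice, so the model treats these 12 libraries as independent, which they are not. Mice were approximately 30 weeks old at termination. Each comparison with systemic JAK1i also holds a difference between week 4 and week 12 and between live and terminal sampling, which cannot be told apart from treatment.

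A layer of white fat lies within mouse skin, beneath the dermis and above a thin sheet of skeletal muscle, and the lower ends of growing hair follicles reach into it. Its adipocytes store triglyceride in a large droplet coated by perilipins and CIDE proteins, and they secrete hormones such as adiponectin and leptin. The nuclear receptor PPARγ drives their formation and switches on many of their genes. The layer is known to thicken as follicles enter the growth phase, anagen, and to thin as they rest.

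Libraries held between 3444193 and 11233020 counts. The 10 genes together made up a median of 0.157% of the counts in healthy skin (range 0.0579 to 0.282), 0.0447% in AA (0.0264 to 0.129), 0.194% under systemic JAK1i (0.142 to 0.238) and 0.0589% in 8w off Tx (0.0467 to 0.0676). In bulk skin, fewer adipocytes and less RNA per adipocyte cannot be told apart. Skeletal muscle genes were very low in healthy libraries A and E, with a summed level of 1457 and 1215 CPM, counts relative to the library total as scaled by TMM, against 13150 to 72828 in the other 4 healthy libraries. RNA of mitochondrial ribosomes took 3.28% to 5.58% of counts in 8w off Tx, above every AA library (1.81% to 2.51%) and every systemic JAK1i library (2.37% to 3.07%), and 1.34% to 4.20% in healthy skin. It was highest in 8w off Tx libraries A and E, at 5.18% and 5.58%. It thus moved with the step from systemic JAK1i to 8w off Tx, and its part in the levels of the adipocyte genes was not tested. Leaving out each of these pairs left between 8 and 10 of the 10 genes called in every comparison in which 9 or 10 were called with all libraries, and 0 in the other 2.

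The adipocyte genes were lower in AA than in healthy skin, higher under systemic JAK1 inhibition than in AA and low again after treatment was stopped. In AA against healthy, 9 of the 10 fell (edgeR quasi-likelihood test, adjusted p under 0.05), where 19.3% of all genes tested fell. The median log2 fold change of the 10 was -1.66, beside 0.00 over all genes. In systemic JAK1i against AA all 10 rose, where 22.9% of all genes rose, with a median of 1.97 beside -0.01. In 8w off Tx against systemic JAK1i all 10 fell, where 16.6% of all genes fell, with a median of -1.78 beside 0.00. Of the 10, 9 fell in 8w off Tx against healthy, where 15.7% of all genes fell, with a median of -1.36 beside 0.01. None of the 10 passed the test in systemic JAK1i against healthy, in which 1.05% of all genes were called in either direction, or in 8w off Tx against AA, in which 1.37% were. An unadjusted p below 0.05 was met by 2 of the 10 in the former, Lep and Plin4, and by 0 in the latter. DESeq2 called 2 and 0 of them. These comparisons share groups of libraries and are not independent of each other.

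**Figure D1:**
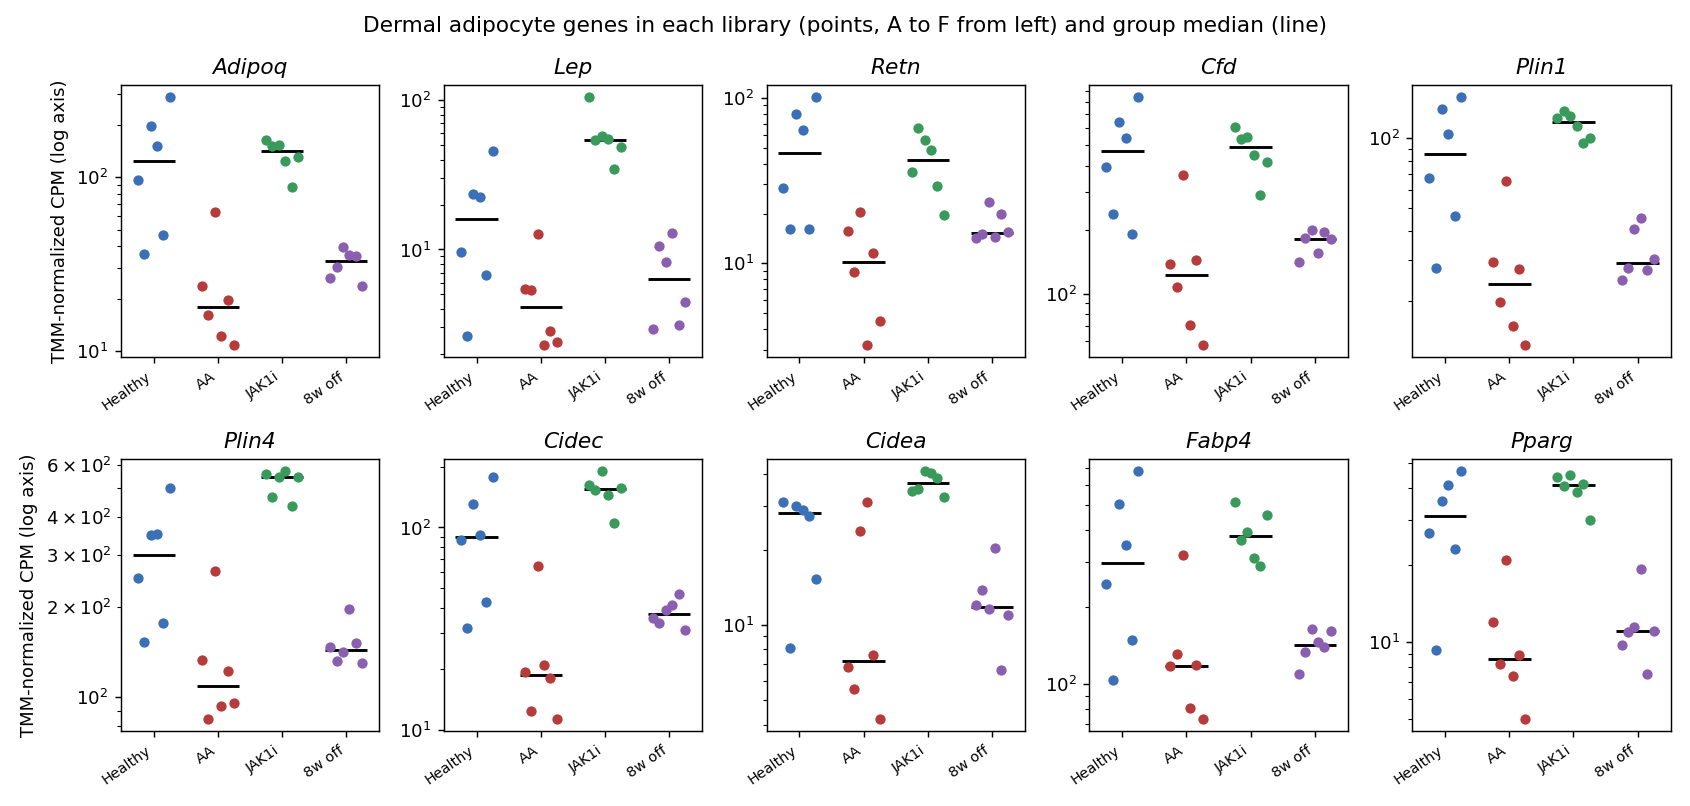
TMM-normalized CPM, on a log axis, of each adipocyte gene in the 6 libraries of each group (points, library A to F from left to right) with the group median (line). The systemic JAK1i points lie above the AA points without overlap for 7 of the 10 genes, and healthy libraries spread widely.

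The separation of libraries followed the same order. Levels under systemic JAK1i lay above every AA library for 7 genes, all but Fabp4, Retn and Cfd, where 13.2% of all genes tested did so. After treatment they lay below every systemic JAK1i library for 9 genes, all but Retn, where 9.19% of all genes did so. No gene of the 10 separated all AA or all 8w off Tx libraries from all healthy ones, where 6.13% of all genes lay below healthy in AA and 4.67% in 8w off Tx. The coefficient of variation over 6 libraries had a median of 56.9% over the 10 genes in healthy skin and 71.5% in AA, against 19.3% in systemic JAK1i and 20.4% in 8w off Tx. Healthy library F was the highest of its group for 9 of the 10 genes and library B the lowest for 8. AA library C was the highest of its group for 9.

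Of the secreted products, adiponectin is an insulin-sensitising hormone made almost only by adipocytes, leptin signals the size of the fat store, resistin is a hormone of mouse adipocytes and adipsin, the product of Cfd, is complement factor D. Adipoq (GRCm38 chr16:23146536-23158028, plus strand) ranged from 36.4 to 289 CPM in healthy skin with a median of 124, from 10.8 to 63.1 in AA with a median of 17.8, from 88.0 to 163 under systemic JAK1i with a median of 142, and from 23.7 to 39.5 in 8w off Tx with a median of 32.9. Every systemic JAK1i library was thus above every AA and every 8w off Tx library, and healthy libraries B and E, at 36.4 and 46.6 CPM, reached down among those of the diseased groups. Adipoq was 5.65-fold lower in AA than in healthy skin (log2 fold change -2.50 ± 0.42 (SE, n = 6 and 6), adjusted p = 9.7e-05) and 5.59-fold higher in systemic JAK1i than in AA (2.48 ± 0.42, adjusted p = 7.54e-05). It fell by 2.08 ± 0.41 on the log2 scale from systemic JAK1i to 8w off Tx (adjusted p = 0.000569). Systemic JAK1i and healthy differed by -0.01, with a 95% interval of -0.84 to 0.81.

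Lep (chr6:29060220-29073877, plus strand) ranged from 2.64 to 45.4 CPM in healthy skin with a median of 16.01, from 2.30 to 12.7 in AA with a median of 4.09, from 34.8 to 105 under systemic JAK1i with a median of 54.4, and from 2.92 to 12.97 in 8w off Tx with a median of 6.34. Of the healthy libraries only F, at 45.4 CPM, reached into the range of systemic JAK1i. Lep had the largest rise of the 10 genes from AA to systemic JAK1i, 11.4-fold (log2 fold change 3.51 ± 0.52, adjusted p = 1.86e-05), and the largest fall afterwards, 8.12-fold (adjusted p = 0.000109). Against healthy skin it was 3.19-fold higher under systemic JAK1i, with a log2 fold change of 1.68 ± 0.46, a 95% interval of 0.72 to 2.63 and an edgeR adjusted p of 0.0759. The same comparison passed in DESeq2 (adjusted p = 0.0309), in limma-voom (0.00179), in limma on log2(TPM + 1) (0.0259) and without healthy library F (0.0135). These were 3 of 14 other settings and 1 of 12 libraries left out, and Lep did not pass in the rest. The fall of Lep in 8w off Tx against healthy, of 1.35 ± 0.52 on the log2 scale (adjusted p = 0.0479), passed narrowly, and leaving out 1 library ended the call for 8 of the 12 libraries left out. These 8 were healthy C, D and F, with an adjusted p of up to 0.196 without F, and 8w off Tx A, B, C, E and F, with one of up to 0.0958.

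Retn (chr8:3655770-3660110, plus strand) had a median of 46.5 CPM in healthy skin (16.1 to 101), 10.2 in AA (3.21 to 20.3), 41.9 under systemic JAK1i (19.7 to 65.7) and 15.3 in 8w off Tx (14.3 to 23.3). Systemic JAK1i library F, at 19.7 CPM, lay below AA library C at 20.3 and below 8w off Tx libraries C and E at 23.3 and 19.9, and Retn was the only one of the 10 genes whose 8w off Tx libraries overlapped those of systemic JAK1i. Retn was 4.71-fold lower in AA than in healthy skin (adjusted p = 0.0004) and 3.90-fold higher in systemic JAK1i than in AA (adjusted p = 0.000969). Its fall from systemic JAK1i to 8w off Tx was the smallest of the 10, 1.31 ± 0.43 on the log2 scale (adjusted p = 0.0203), and the adjusted p was 0.052 without systemic JAK1i library B. Cfd (chr10:79890853-79892655, plus strand) was more abundant, with a median of 467 CPM in healthy skin (190 to 838), 123 in AA (57.4 to 361), 490 under systemic JAK1i (292 to 609) and 181 in 8w off Tx (140 to 199). Cfd was 3.24-fold lower in AA than in healthy skin (adjusted p = 0.000792), 3.24-fold higher in systemic JAK1i than in AA (adjusted p = 0.000624), and differed between systemic JAK1i and healthy by 0.00, with an interval of -0.73 to 0.73 on the log2 scale.

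The bases upstream of the 4 genes for secreted products are shown as a description. They are RefSeq promoter windows of GRCm38.p6, on the plus strand, 5′ to 3′, from 250 bases before the RefSeq start, and end before the first exon. Capitals mark TTGCNNAA, the core of sites bound by C/EBP factors, found on either strand. The windows are chr16:23146286-23146535 for Adipoq, chr6:29059971-29060219 for Lep, chr8:3655520-3655769 for Retn and chr10:79890603-79890852 for Cfd.
Adipoq: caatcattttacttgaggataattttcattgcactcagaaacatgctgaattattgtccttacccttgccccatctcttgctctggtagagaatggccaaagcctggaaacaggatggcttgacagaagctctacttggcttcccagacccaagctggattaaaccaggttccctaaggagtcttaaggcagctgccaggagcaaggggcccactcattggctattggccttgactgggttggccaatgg
Lep: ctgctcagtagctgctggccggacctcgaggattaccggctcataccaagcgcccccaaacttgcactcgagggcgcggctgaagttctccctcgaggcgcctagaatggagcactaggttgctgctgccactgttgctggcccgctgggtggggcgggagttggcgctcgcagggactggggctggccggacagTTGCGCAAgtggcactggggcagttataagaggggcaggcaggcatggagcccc
Retn: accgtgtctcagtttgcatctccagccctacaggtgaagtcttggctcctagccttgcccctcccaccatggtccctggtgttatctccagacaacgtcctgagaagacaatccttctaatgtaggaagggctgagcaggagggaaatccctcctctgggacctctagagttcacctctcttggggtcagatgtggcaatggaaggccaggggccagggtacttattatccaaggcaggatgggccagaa
Cfd: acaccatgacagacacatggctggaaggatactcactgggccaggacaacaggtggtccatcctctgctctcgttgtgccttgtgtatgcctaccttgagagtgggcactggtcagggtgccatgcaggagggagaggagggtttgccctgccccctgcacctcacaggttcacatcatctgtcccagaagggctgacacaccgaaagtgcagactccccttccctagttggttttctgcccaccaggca
The Lep window holds 1 match, TTGCGCAA, 55 to 48 bases before the start, and the other 3 hold none. TTGCGCAA, a palindrome that is one form of TTGCNNAA, is in 0.164% of the 32851 windows of 250 bases in the RefSeq table, and TTGCNNAA in 9.56%. RefSeq windows were found for 8 of the 10 adipocyte genes, 11 windows in all, and TTGCNNAA was in 4 of them, of Lep, Cidec, Plin1 and Pparg. AGGTCA, the half-site read by nuclear receptors such as PPARγ, was on either strand of 2 of the 11 windows, both of Pparg, and in 4607 of all windows. DR1, a direct repeat of that half-site spaced by 1 base, was in 0 of the 11 and in 0.0335% of all. A match is a description of the letters in these windows and no evidence of binding, and its part in the level of any gene was not tested.

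Perilipin 1, from Plin1, coats the droplet and gates the access of lipases to it, perilipin 4 coats small droplets, and the products of Cidec and Cidea help droplets to fuse and enlarge. Plin1 (chr7:79720218-79732903, minus strand) had a median of 85.5 CPM in healthy skin (27.6 to 149), 23.5 in AA (12.96 to 65.1), 117 under systemic JAK1i (95.5 to 131) and 28.9 in 8w off Tx (24.7 to 45.2). It fell 3.10-fold in AA (adjusted p = 0.000828), rose 4.03-fold from AA to systemic JAK1i (8.85e-05) and fell 3.48-fold in 8w off Tx (0.000398). Plin4 (chr17:56100591-56109803, minus strand) had a median of 300.1 CPM in healthy skin (153 to 503), 109 in AA (84.7 to 264), 547 under systemic JAK1i (435 to 572) and 144 in 8w off Tx (130 to 197). Under systemic JAK1i it was above all AA and 8w off Tx libraries, and above 5 of the 6 healthy ones, all but F. Its rise over AA was 3.95-fold (adjusted p = 4.56e-06). Against healthy it was 1.75-fold higher (interval 0.28 to 1.34 on the log2 scale, edgeR adjusted p of 0.109), which passed in DESeq2 (adjusted p = 0.0478), in limma-voom (0.00709) and without healthy library F (0.0266). These were 2 of 14 other settings and 1 of 12 libraries left out, and Plin4 did not pass in the rest. Plin4 overlaps Hdgfl2 on the other strand, and the strand setting of the count is not given in the sources used here. Hdgfl2 itself lay between 20.7 and 34.5 CPM in all 24 libraries.

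Cidec (chr6:113424634-113435760, minus strand) had a median of 89.3 CPM in healthy skin (31.8 to 178), 18.6 in AA (11.4 to 64.9), 155 under systemic JAK1i (105 to 190) and 37.3 in 8w off Tx (31.3 to 46.9). After Lep it had the second largest rise from AA to systemic JAK1i, 6.26-fold (adjusted p = 1.12e-05), and every 8w off Tx library was below every systemic JAK1i library (4.00-fold lower, adjusted p = 0.000246). Cidea (chr18:67343604-67367785, plus strand) is best known from brown fat and is also made in sebaceous glands. Its median was 27.99 CPM in healthy skin (8.08 to 31.0), 7.20 in AA (4.23 to 31.0), 36.8 under systemic JAK1i (32.6 to 41.2) and 11.8 in 8w off Tx (6.63 to 20.3). AA libraries C and D, at 23.7 and 31.0 CPM, lay far above the other 4 AA libraries, which were between 4.23 and 7.60. Cidea was the member that did not pass in AA against healthy (log2 fold change -0.85 ± 0.39, adjusted p = 0.0869) or in 8w off Tx against healthy (-0.89 ± 0.39, adjusted p = 0.085). Without AA library D the former was -1.31 with an adjusted p of 0.00728, without AA C it was -1.11 (0.0321) and without healthy B -1.04 (0.0281). The latter passed without healthy library B (0.028) and without 8w off Tx D (0.048). Cidea rose 2.86-fold from AA to systemic JAK1i (adjusted p = 0.00269) and fell 2.93-fold afterwards (0.00318). All 6 systemic JAK1i libraries lay above all 6 healthy ones, a separation in that direction that 1.42% of all genes showed, with a log2 fold change of 0.66 ± 0.37 and an adjusted p of 0.366. Cidea overlaps B430212C06Rik on the other strand, which lay between 1.23 and 3.67 CPM.

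Fabp4 encodes the fatty-acid binding protein of adipocytes, which is also present in endothelium and macrophages, and Pparg the master regulator of fat cell formation, which sebocytes also use. Fabp4 (chr3:10204088-10208576, minus strand) had a median of 297 CPM in healthy skin (104 to 681), 118 in AA (73.2 to 320.4), 378 under systemic JAK1i (289 to 517) and 143 in 8w off Tx (109 to 164). Of the AA and 8w off Tx libraries, only AA library C, at 320.4 CPM, lay within the range of systemic JAK1i. Fabp4 had the smallest rise from AA to systemic JAK1i, 2.78-fold (adjusted p = 0.00221), after a 2.42-fold fall in AA (0.00767). Pparg (chr6:115360951-115490399, plus strand) had a median of 31.1 CPM in healthy skin (9.31 to 46.5), 8.57 in AA (5.02 to 20.8), 40.9 under systemic JAK1i (29.9 to 44.7) and 10.99 in 8w off Tx (7.52 to 19.3). It fell 2.91-fold in AA (adjusted p = 0.000443), rose 3.82-fold in systemic JAK1i over AA (3.26e-05) and fell 3.39-fold afterwards (0.000139), and the systemic JAK1i libraries lay apart from those of both groups.

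**Figure D2:**
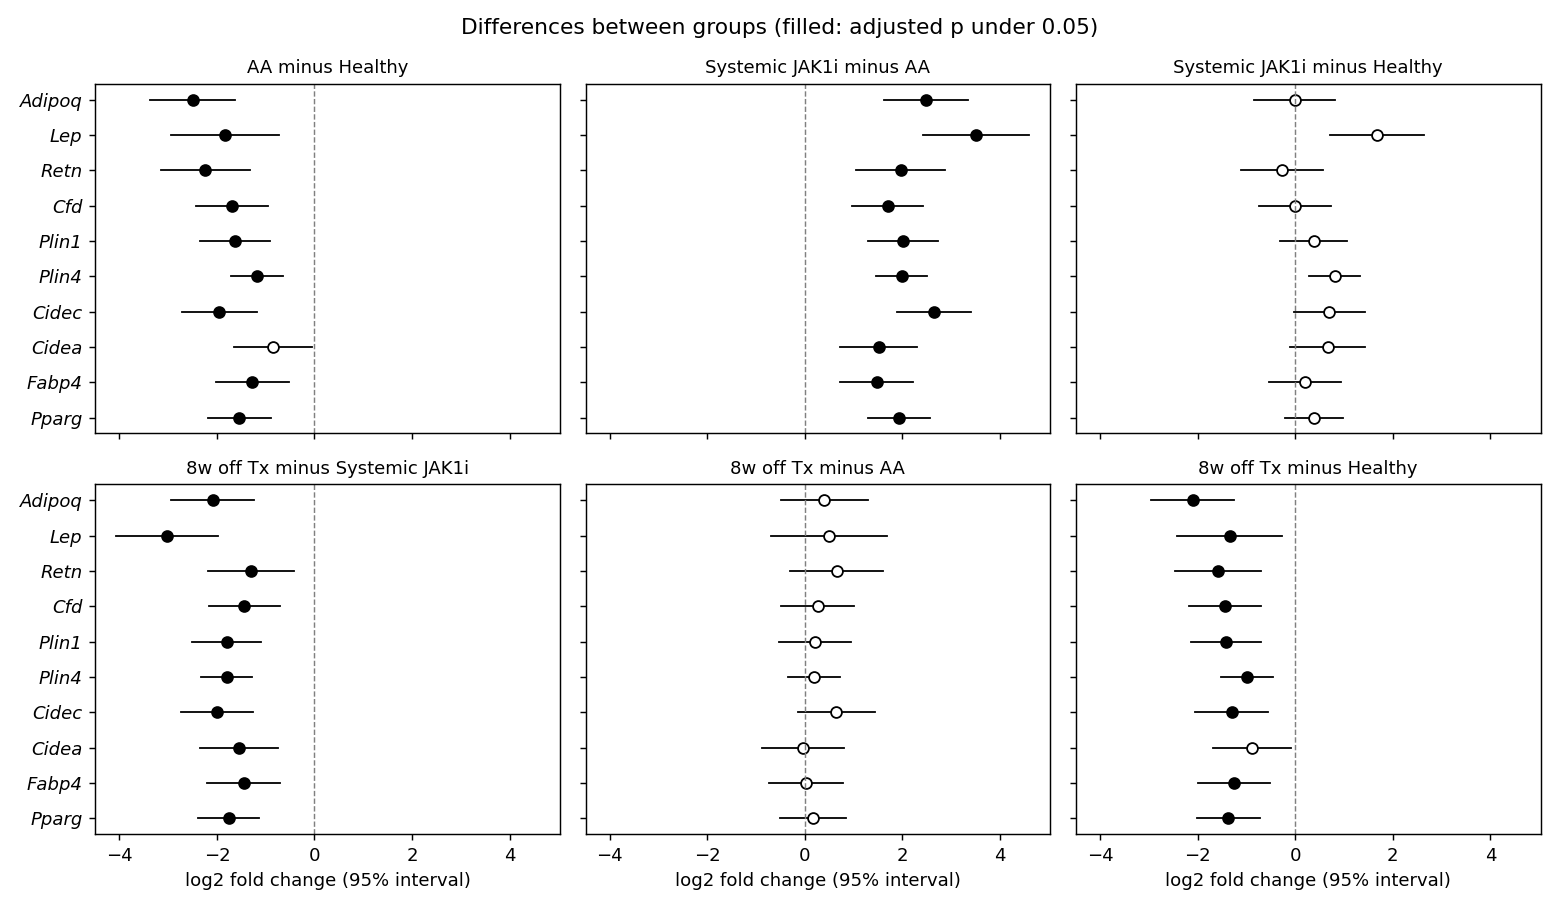
Log2 fold change with its 95% interval for each adipocyte gene in the 6 comparisons, from edgeR. Filled points passed an adjusted p of 0.05: all 10 genes in systemic JAK1i against AA and in 8w off Tx against systemic JAK1i, 9 in AA and in 8w off Tx against healthy, and none in the other 2 comparisons.

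The 10 log2 fold changes of 8w off Tx against AA lay between -0.03 for Cidea and 0.66 for Retn, and the widest interval, that of Lep, ran from -0.70 to 1.68. In systemic JAK1i against healthy they lay between -0.27 for Retn and 1.68 for Lep. Passing the test against healthy in AA and missing it under systemic JAK1i does not by itself show that these levels were equal to healthy.

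Levels can be compared between genes only per length, in TPM, and in that unit the highest 2 and the lowest 3 of the 10 group medians belonged to the same genes in each of the 4 groups. Fabp4 was the highest in each group, with a median of 276 TPM in healthy skin, 104 in AA, 441 under systemic JAK1i and 69.5 in 8w off Tx, and Cfd came next in each, with 269, 63.7, 361 and 56.9. These were followed in healthy skin by Adipoq (48.1), Plin4 (33.4), Retn (30.4), Cidec (28.3), Plin1 (21.2), Cidea (12.3), Pparg (8.26) and Lep (3.02). Their ranges over the 6 libraries overlapped each of their neighbours in that order. Lep was the lowest of the 10 in each group, at 0.642 TPM in AA, 10.9 under systemic JAK1i and 0.712 in 8w off Tx.

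The 10 genes varied together from library to library, also within groups. After the group mean of each gene was subtracted from log2 CPM, Pearson's r over the 24 libraries had a median of 0.86 over the 45 pairs of genes and reached 0.96 for Adipoq with Plin1. Over the 36 pairs without Cidea it was at least 0.71. Cidea stood apart, with r = 0.37 to the mean of the other 9, where the others had between 0.80 for Retn and 0.98 for Plin1. The libraries share depth and tissue make-up, so these are descriptions with no p. Cidea went instead with 11 other genes of a sebaceous gland list, with r = 0.93 within groups, a comparison chosen after its values were seen, and Pparg had r = 0.60 with the same genes and the other 8 members between 0.04 for Retn and 0.43 for Cidec. AA library D, with the highest Cidea of its group, also had the highest summed level of the 13 sebaceous genes, which include Cidea and Pparg, at 3551 CPM against 1042 to 1987 in the other 5 AA libraries. Krt79, a keratin and the most abundant gene of the list, made up 2847 CPM of that sum. On the mean z-score of the 11 genes with group means removed, in which each gene counts alike, AA library C stood at 1.48 and D at 1.34, the highest of the group. The 10 adipocyte genes summed to 338 CPM in library D and to 1216 in library C, in a group that ranged from 277 to 1216.

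Within a library, Lep took a larger part under systemic JAK1i than in healthy skin. The ratio of Lep to Adipoq counts within a library was 0.0725 to 0.157 in healthy skin with a median of 0.131, and 0.354 to 0.643 in systemic JAK1i with a median of 0.385, so that the groups did not overlap. In AA it was 0.144 to 0.333 and in 8w off Tx 0.0875 to 0.364, with medians of 0.211 and 0.198. Only 8w off Tx library D, at 0.364, reached into the systemic JAK1i range. The ratios in this paragraph were chosen after the values were seen and were not tested. The ratio of Lep to Plin1 was also without overlap, from 0.0955 to 0.304 in healthy skin and from 0.364 to 0.864 in systemic JAK1i, whereas that of Retn to Adipoq overlapped, from 0.296 to 0.444 and from 0.15 to 0.431. The median ratio to Adipoq was higher in AA than in healthy skin for each of the other 9 genes. The libraries did not overlap for Fabp4, at 2.30 to 3.19 in healthy skin and 4.93 to 8.14 in AA, or for Plin1, at up to 0.989 in healthy skin and 1.03 or more in AA. For Plin4 they overlapped slightly, at 1.74 to 4.21 and 4.17 to 8.81. Mice on systemic JAK1i were sampled 8 weeks before the healthy ones, and their drug was given in the food. Food intake and body weight were not analysed here, and their part in the level of Lep was not tested.

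**Figure D3:**
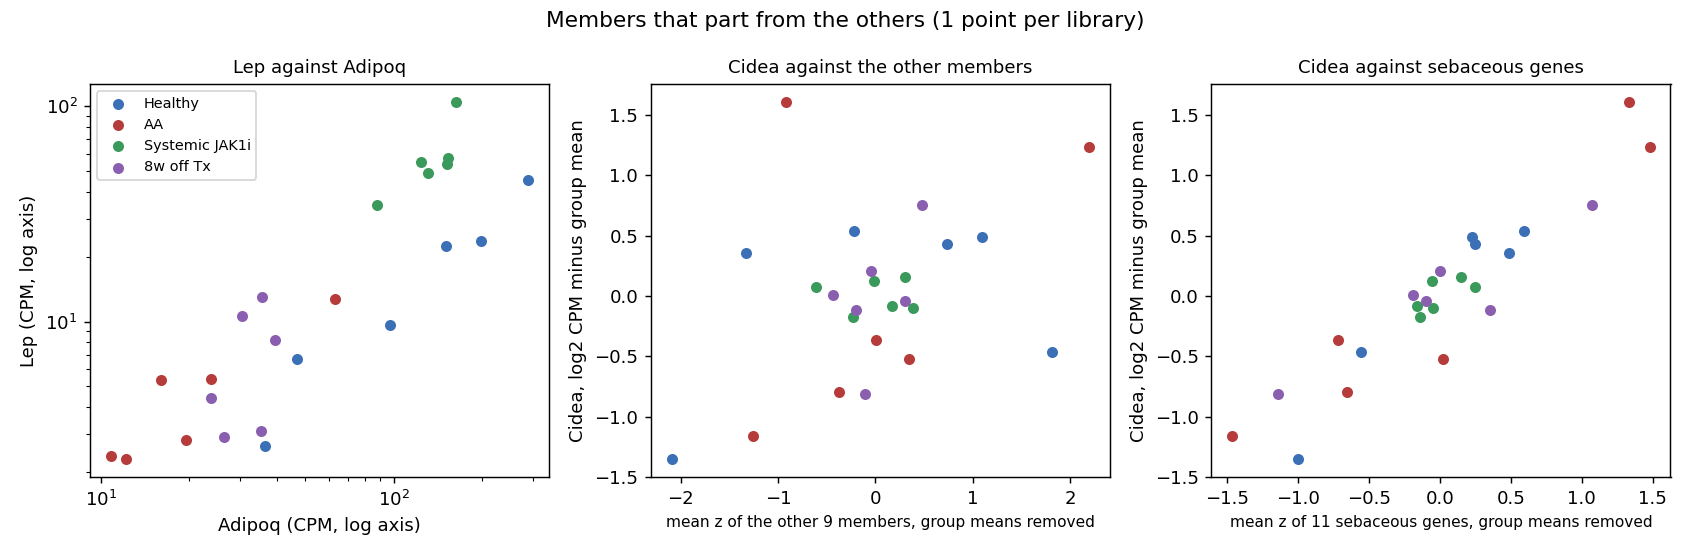
Left, Lep against Adipoq in CPM on log axes, 1 point per library, in which the systemic JAK1i libraries lie above every healthy and AA library in the ratio of the 2, and 8w off Tx library D (0.364) lies above only systemic JAK1i library B (0.354) among them. Middle and right, Cidea (log2 CPM minus its group mean) against the mean z-score of the other 9 adipocyte genes (r = 0.37) and of 11 sebaceous gland genes (r = 0.93), group means removed.

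Genes outside the 10 that followed their mean z-score most closely over the 24 libraries were Aoc3 (r = 0.98), Cavin2 (0.97), Slc7a10 (0.97), Cd36 (0.97), Trarg1 (0.97), Cped1 (0.97), Prrx1 (0.97) and Sncg (0.96). Aoc3 encodes an amine oxidase of the adipocyte surface, Trarg1 a regulator of glucose transporter traffic and Cd36 a fatty-acid transporter. Sncg, gamma-synuclein, had a median of 20.2 CPM in healthy skin, 2.74 in AA, 27.7 under systemic JAK1i and 3.89 in 8w off Tx. Within groups the closest were Aoc3 (r = 0.94), Smoc1 (0.93), Tshr (0.93), Cavin2 (0.93), Nid2 (0.93), Lpl (0.92), Adamtsl1 (0.92) and Ccdc80 (0.92). Tshr, the receptor for thyroid-stimulating hormone, had medians of 7.55, 1.63, 10.8 and 2.56 CPM in the same order of groups. Nid2 changed less, with medians of 27.4, 22.7, 30.0 and 19.9 CPM. Of the genes closest within groups, only Lpl is on the list of other adipocyte genes described next.

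Of 30 other genes of adipocyte metabolism, 25 fell and 0 rose in AA against healthy, with a median log2 fold change of -0.86. In systemic JAK1i against AA 24 rose and 0 fell, and in 8w off Tx against systemic JAK1i 16 fell and 0 rose. Over all genes 19.3% fell in the first of these comparisons, 22.9% rose in the second and 16.6% fell in the third. Against healthy 17 fell in 8w off Tx, where 15.7% of all genes fell. In systemic JAK1i against healthy none was called by edgeR, at a background of 1.05% of all genes. In 8w off Tx against AA, where 1.37% of all genes were called, only Bscl2, the seipin gene, was called (log2 fold change -0.33 ± 0.07, adjusted p = 0.0308). The number called from this list there ranged from 0 to 2 with 1 library left out and from 0 to 3 in other settings. Cdo1, cysteine dioxygenase, had a median of 65.2 CPM in healthy skin (25.1 to 148), 11.7 in AA (5.02 to 25.2), 93.7 under systemic JAK1i (48.5 to 126) and 30.6 in 8w off Tx (19.2 to 39.8). Its fall in AA was -2.38 ± 0.38 on the log2 scale (adjusted p = 5.44e-05). Pnpla2, the triglyceride lipase ATGL, was lower by -1.15 ± 0.19 in AA (6.94e-05) and higher by 1.38 ± 0.19 in systemic JAK1i over AA (7.51e-06). The most abundant gene of the list, Car3, a carbonic anhydrase that muscle also makes, did not pass in AA against healthy (-0.82 ± 0.44, adjusted p = 0.144), and the next, the fatty acid synthase gene Fasn, fell (-1.50 ± 0.31, 0.000618).

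Of 8 genes of brown and beige fat 6 were tested, while Ucp1 and Kcnk3 had too few counts. Of the 6, 2 fell and 0 rose in AA against healthy, where 19.3% of all genes fell. These were Ppara and Prdm16, by 1.55 ± 0.19 and 1.84 ± 0.33 on the log2 scale, and both rose in systemic JAK1i over AA. In that comparison 4 of the 6 rose, where 22.9% of all genes did. In 8w off Tx 2 fell and 1 rose against systemic JAK1i, where 16.6% of all genes fell and 19.4% rose. Against healthy 2 also fell and 1 rose, where 15.7% of all genes fell and 2753 of 16248 rose. Ppara also was higher in 8w off Tx than in AA (0.84 ± 0.19, adjusted p = 0.0309), where 1.37% of all genes were called in either direction. None of the 6 was called there for 5 of 12 libraries left out and in 6 of 14 other settings. Cox8b, the most abundant of the 6, overlapped between healthy (0.744 to 30.4 CPM) and AA (3.44 to 13.7). The 6 summed to 42.9 and 45.7 CPM in healthy libraries A and E, the lowest of that group and those with least skeletal muscle RNA. In 8w off Tx they summed to 108 and 118 CPM in A and E, the highest of that group and those with most muscle RNA. The part of muscle RNA in these levels was not tested. Of 11 adipocyte precursor genes, 4 fell and 2 rose in AA against healthy, where 20.9% of all genes rose. Of the same 11, 6 rose and 3 fell in systemic JAK1i against AA, where 24.8% of all genes fell, and in 8w off Tx against systemic JAK1i 5 fell and 3 rose, where 19.4% of all genes rose. Cd34, a surface antigen of precursors that endothelium and the follicle bulge also carry, was lower by -1.64 ± 0.26 in AA (adjusted p = 4.27e-05), and Ly6a, which interferons induce, went the other way, from a median of 58.3 CPM in healthy skin to 191 in AA, 41.1 under systemic JAK1i and 127 in 8w off Tx. Pdgfra, the most abundant after Cd34, had medians of 123, 92.0, 145 and 84.3 CPM.

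Endothelial genes moved with the adipocyte genes, and sebaceous gland genes did so in part. All 8 endothelial genes fell in AA (median log2 fold change -1.36), all 8 rose in systemic JAK1i over AA and all 8 fell again in 8w off Tx, with a summed level of 158 to 333 CPM in healthy skin, 51.0 to 133 in AA, 221 to 262 under systemic JAK1i and 92.8 to 139 in 8w off Tx. Pecam1 was lower by -1.25 ± 0.18 and Emcn by -2.18 ± 0.24 in AA. All 11 hair matrix genes went the other way, with a median of 5.73 in AA against healthy and -5.35 in systemic JAK1i against AA. Their summed level was 35.3 to 689 CPM in healthy skin, 5617 to 17132 in AA, 41.1 to 484 under systemic JAK1i and 89.8 to 14600 in 8w off Tx. The 13 sebaceous gland genes include Cidea and Pparg. Of the 13, 6 fell and 2 rose in AA. In systemic JAK1i over AA 11 rose and 1 fell, and afterwards 10 fell and 1 rose. Over all genes tested 19.3% fell and 20.9% rose in AA, and 22.9% rose and 24.8% fell in systemic JAK1i over AA. Afterwards 16.6% of all genes fell and 19.4% rose. Scd3, a fatty-acid desaturase of the sebaceous gland, was lower by -3.69 ± 0.59 in AA. The medians of Krt79, the most abundant gene of the list, went the other way. They were 553 CPM in healthy skin, 912 in AA, 612 under systemic JAK1i and 1140 in 8w off Tx. The part of these cell types in the levels of the adipocyte genes was not tested.

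The hair matrix genes divided the 8w off Tx libraries. Libraries A and E had summed hair matrix levels of 212 and 89.8 CPM, within the healthy range, and the other 4 had 6244 to 14600. The 10 adipocyte genes summed to 522 and 633 CPM in A and E and to 590.03 to 686 in the other 4, all below the 1449 to 2352 of systemic JAK1i. These sums are carried by the abundant Cfd, Plin4 and Fabp4. For 3 less abundant genes A and E were the lowest of the 6 libraries, Lep with 2.92 and 3.10 CPM against 4.44 to 12.97, Pparg with 9.73 and 7.52 against 10.99 to 19.3 and Plin1 with 24.7 and 27.2 against 27.6 to 45.2. The ratio of Lep to Adipoq was also lowest there, at 0.111 and 0.0875 against 0.187 to 0.364. Adipoq, Retn, Cidec and Cidea did not have A and E as their lowest libraries. Library E was the highest of the 6 for Cidec, at 46.9 CPM, and held 19.9 CPM of Retn in a group of 14.3 to 23.3. Library A held 12.0 CPM of Cidea in a group of 6.63 to 20.3, and Adipoq was lowest in F. A and E also held the most skeletal muscle RNA of the group, with summed levels of 96236 and 107626 CPM.

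**Figure D4:**
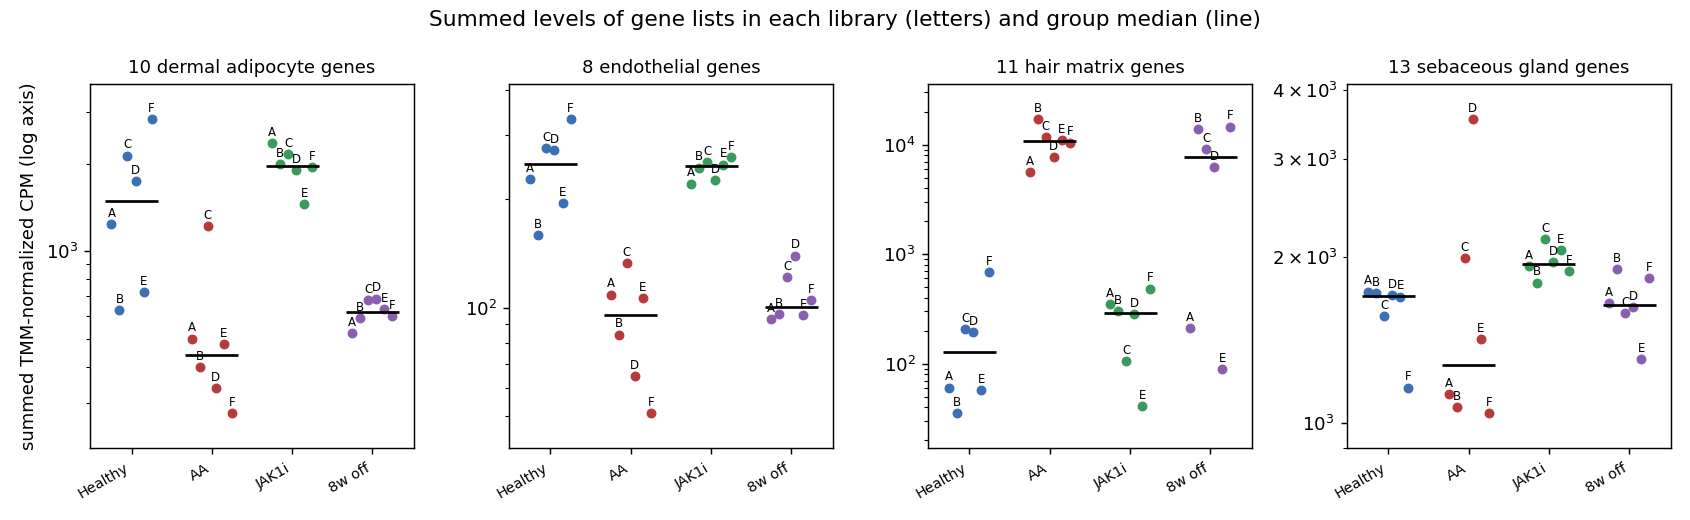
Summed TMM-normalized CPM, on log axes, of the adipocyte genes and of 3 other gene lists in each library (letters), with group medians (lines). Adipocyte and endothelial sums are low in AA and 8w off Tx, hair matrix sums are high in both except in 8w off Tx libraries A and E, and the sebaceous sum is highest in AA library D.

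The 15 skeletal muscle genes gave no call in AA against healthy, 8w off Tx against AA or 8w off Tx against healthy. In systemic JAK1i 2 were higher than in AA, where 22.9% of all genes were, at a median log2 fold change of 1.19 over the 15. Against healthy skin 1 was higher in systemic JAK1i, where 1.05% of all genes were called in either direction. In 8w off Tx 1 was lower than in systemic JAK1i, where 16.6% of all genes were. The summed level of the muscle genes was 65241 to 81700 CPM in systemic JAK1i, above every AA library (18499 to 51756). With the mean of these genes as a covariate, added after the data were seen, the numbers of adipocyte genes called were 9, 10 and 0 in AA against healthy, systemic JAK1i against AA and systemic JAK1i against healthy, and 10, 0 and 9 in 8w off Tx against systemic JAK1i, AA and healthy, the same as without it. Of 8 dermal fibroblast genes 3 fell in AA, 4 rose in systemic JAK1i over AA and 8 fell in 8w off Tx against systemic JAK1i. Over all genes these shares were 19.3%, 22.9% and 16.6%. Of 8 macrophage genes 3 rose and 1 fell in AA, of 7 T cell genes 3 rose and 0 fell, and of 8 keratinocyte genes 3 rose and 1 fell, beside 20.9% of all genes that rose and 19.3% that fell. In systemic JAK1i against AA, 6 T cell genes, 2 macrophage genes and 3 keratinocyte genes fell, and 1 keratinocyte gene rose, beside 24.8% of all genes that fell and 22.9% that rose.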

How the data were processed

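The authors prepared total RNA of low integrity from mouse skin, made ribosome-depleted stranded libraries without fragmentation and sequenced them in pairs of 76 bases, although the sample descriptions speak of polyA RNA. Reads were mapped with HISAT2 2.0.1 to mm10 (GRCm38), and the deposited whole-number count per gene is the output of featureCounts 1.4.4. The authors also deposited TPM, made by a tool not given in the sources used here. Counts are the basis of all results, and TPM was used for levels between genes and as an alternative. Of 39017 gene IDs 37607 have a GENCODE M21 symbol, and 6 columns of each table match no sample and were left out.

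R 4.3.3 with edgeR 4.0.16 was used: filterByExpr with a minimum count of 10, TMM, and glmQLFit in 1 design of the 4 groups. The 6 comparisons were tested by glmQLFTest (two-sided) and adjusted by Benjamini-Hochberg over 16248 genes, with a call at 0.05. CPM are normalized by TMM, fold changes and their SE and 95% intervals come from the same fit, and log2 CPM for correlations used a prior count of 2. Alternatives used DESeq2 1.42.0 and limma 3.58.1, on log2(TPM + 0.1) or log2(TPM + 1). The steps were tested on simulated counts. No pair of libraries of a group held identical counts. The spread between libraries of a group, beyond counting error, was a coefficient of variation of 0.223 in the edgeR fit.

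The 10 genes and the other lists were chosen with earlier results of these data known. Named are the 10 genes in every comparison. From each other list described by gene they are the 2 most abundant and the 2 with the smallest adjusted p in AA against healthy, of which not all are printed, and beside these the 8 genes most like the 10 by each measure. Bscl2, Acaca, Acly, Thrsp and Mlxipl were named after their values were seen. Krt85 on the hair matrix list was not matched.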

Additional observations from a re-analysis of the deposited data

Results flagged for a closer look

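In each group of 6 libraries the highest or lowest value of each of the 10 genes was set against the others, and in 10 of the 40 sets it stood apart by Dixon's criterion. Chance flags about 1 in 20 such sets if values are normally distributed. CPM were used here without logarithms and every flagged value was the highest of its set, so that share need not hold. The genes of a library vary together, so the 10 flags are not independent. AA library C gave 7 of them, as the highest of its group: Adipoq at 63.1 CPM, Lep at 12.7, Plin1 at 65.1, Plin4 at 263.6, Cidec at 64.9, Fabp4 at 320.4 and Cfd at 361 CPM. The same library had the highest summed level of its group for endothelium, 133 CPM, and for dermal fibroblasts, 8820 CPM, and the lowest for T cells, 26.9 CPM against 44.7 to 118 in the other 5 AA libraries and 14.8 to 33.5 in healthy skin. Their part in its adipocyte levels was not tested. Systemic JAK1i library A stood apart for Lep, at 104.8 CPM. In 8w off Tx, library D stood apart for Plin4, at 196.6 CPM, and for Pparg, at 19.3 CPM.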

How the results depend on the processing

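Each result was recomputed with RLE or upper-quartile scaling, without the filter on low counts, with the library letter as a block, on the 2 groups alone, in DESeq2, in limma-voom (quality weights), on log2 TPM in limma, and with each library left out. After seeing the data, a skeletal muscle covariate, the 2 pairs of libraries left out and median-centred TPM were added. The number of adipocyte genes called in systemic JAK1i against healthy was 0, but 2 in DESeq2, 3 in limma-voom and 1 in limma on log2(TPM + 1), all higher. With 1 library left out it was 0 to 2, and the numbers were 9 to 10 in AA against healthy, 10 to 10 in systemic JAK1i against AA, 9 to 10 in 8w off Tx against systemic JAK1i, 0 to 0 in 8w off Tx against AA and 8 to 10 in 8w off Tx against healthy. Whether the letters pair the samples could not be decided. Deviations of same-lettered libraries correlated between -0.24 and 0.41 and over 0.1 in 6 of 36 pairs. Most of these pairs join groups of different mice. Between systemic JAK1i and 8w off Tx, which share mice, they lay between -0.22 and 0.38, with 1 over 0.1. Samples of a mouse taken weeks apart need not share deviations. With the replicate block, Cidea was called in AA against healthy (adjusted p = 0.0256) and Lep was lost in 8w off Tx against healthy (0.086), and no other call of the 10 genes changed. The fall of Lep in 8w off Tx against healthy was also not called in 5 other settings, among them the 2 groups alone (0.106) and limma-voom (0.0979). Lep and Fabp4 missed the call in AA against healthy on log2(TPM + 0.1) (0.0785 and 0.0737) and passed when it was centred, and on centred TPM Retn in 8w off Tx against systemic JAK1i (0.0627) and Cidec in 8w off Tx against healthy (0.0659) missed theirs. Cidea was called in AA against healthy by limma-voom (0.000505) and in 8w off Tx against healthy by limma-voom (0.00804) and on uncentred TPM (0.00956 to 0.0155). The uncentred log2(TPM + 0.1) scale moved the median of all genes by -1.17 in 8w off Tx against systemic JAK1i and by 0.65 in systemic JAK1i against AA, and all genes called in the former were 263 higher and 18231 lower, against 3144 and 2697 in edgeR. All genes called in systemic JAK1i against healthy ranged from 12 without healthy A and E to 1978 in limma-voom, against 170, and in 8w off Tx against AA from 18 on the 2 groups alone to 650 on log2(TPM + 1), against 222. The cause was not tested.

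Signs turned in the 2 comparisons in which edgeR called none of the 10 genes, and no turned value was called. In systemic JAK1i against healthy, Cfd (0.00) was -0.004 with RLE, -0.0194 with upper-quartile scaling, -0.0064 without a filter, -0.0036 in DESeq2, -0.0021 in limma-voom, -0.0114 without 8w off Tx A and E, -0.2538 without healthy A and E and -0.1959 with the muscle covariate. Fabp4 was -0.0776 without healthy A and E. Adipoq was 0.1529 with the block, 0.0516 in limma-voom, 0.6108 on log2(TPM + 0.1) with or without a filter, 0.2114 when this was centred and 0.5921 on log2(TPM + 1). Retn was 0.3105 on log2(TPM + 0.1), filtered or not, and 0.2921 on log2(TPM + 1). In 8w off Tx against AA, Cidea was 0.1429 with the block, 0.5578 in limma-voom, 0.2275 on centred TPM, 0.1312 without 8w off Tx A and E and 0.1613 with the muscle covariate, and Fabp4 was -0.0797 with that covariate. On log2(TPM + 0.1), filtered or not, Lep was -0.0251, Plin1 -0.1592, Plin4 -0.2342, Fabp4 -0.423, Cfd -0.0644 and Pparg -0.2345, and on log2(TPM + 1) they were -0.0473, -0.1678, -0.2251, -0.4206, -0.0715 and -0.1878. Leaving out 1 library gave -0.2122 to 0.348 for Adipoq, -0.4577 to 0.0396 for Retn and -0.1625 to 0.2392 for Cfd in the former, and -0.2323 to 0.4232 for Cidea, -0.1068 to 0.4511 for Fabp4 and -0.0344 to 0.4666 for Pparg in the latter.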

Other observations

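Among the 30 other adipocyte genes, 5 of fatty-acid synthesis were picked after their values were seen and are given as values only. Fasn, Acaca (acetyl-CoA carboxylase), Acly (ATP citrate lyase), Thrsp and Mlxipl (the carbohydrate-responsive factor ChREBP) fell in AA against healthy, with log2 fold changes of -1.50, -0.63, -0.55, -2.72 and -1.26. In systemic JAK1i against AA, Mlxipl rose (1.77 ± 0.32, adjusted p = 0.000108) as did Acly (0.35 ± 0.13, 0.0274), while Fasn gave 0.56 ± 0.31 (0.137), Acaca -0.07 ± 0.21 (0.82) and Thrsp 1.26 ± 0.67 (0.124). None of the 5 was called in 8w off Tx against systemic JAK1i by edgeR. There Fasn gave 0.18 ± 0.31, Thrsp 0.97 ± 0.61, Acaca 0.24 ± 0.21, Acly -0.11 ± 0.13 and Mlxipl -0.59 ± 0.30. Of all 30 genes 14 were not called in that comparison, in which 16.6% of all genes tested fell. In AA against healthy 25 of the 30 fell, where 19.3% of all genes did.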
